A study of Homo sapiens with 6 samples.

Results

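Histone genes fall into classes that differ in how their mRNA ends. Replication-dependent histone mRNAs are made during S phase to package new DNA, and they normally end just behind a conserved stem-loop that is bound by SLBP, without a poly(A) tail. Replacement histone genes are expressed through the cell cycle and give ordinary polyadenylated mRNAs with poly(A) signals. Selection with oligo(dT) beads therefore keeps replacement transcripts and retains replication-dependent ones only where they carry a tail or an internal run of A, or where they pass the selection without one.

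The histone transcripts were taken as all protein-coding genes whose symbols begin HIST1H, HIST2H or HIST3H (replication-dependent) or H1F, H2AF or H3F (replacement). This gave 71 of the 26899 genes in the deposited count table, of which 60 were replication-dependent and 11 were replacement genes. Symbols are those of the deposited table. All members were located in GENCODE release 44 on GRCh38, 68 by gene identifier and 3 through RefSeq synonyms. Of the replication-dependent genes, 51 lie in the HIST1 cluster on chromosome 6 between 26020451 and 27893891, 7 in the HIST2 cluster and 2 in the HIST3 cluster on chromosome 1.

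The study compared 3 control and 3 ANXA2 knockdown libraries of HK-2, an established human kidney proximal tubule line transformed with human papillomavirus 16, whose E6 and E7 proteins are known to interfere with p53 and RB. All cells were one line, and the labels state lipid transfection of plasmids. The control is called WT in the titles and shCtrl in the descriptions, and the labels do not settle whether those cells carried a control hairpin. The labels do not say that the 3 libraries of a group came from separate cultures, so the p-values below measure only the spread between these libraries, which may be technical.

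Library depth was 24231267 to 34561675 counted reads. ANXA2, the targeted gene, stood at 1598 ± 119 CPM in control and 1539 ± 21.3 CPM in knockdown libraries (SD, n = 3), where CPM are counts scaled to library size by the TMM method. The edgeR estimate, meaning the log2 fold change of knockdown over control, was -0.05 with a standard error (SE) of 0.075 and an adjusted p of 0.848. The targeted mRNA was thus not detectably lower, so the groups are named here by their labels alone and each difference below is one between labels. The epithelial markers KRT8, KRT18, PAX8 and GGT1 were abundant, whereas the tubule markers LRP2, AQP1, CUBN, ANPEP, HNF4A and SLC34A1 had between 0 and 22 reads per library. Of 10 markers of leukocytes, endothelium and fibroblasts, 5 were listed in the table, and CD14, with 36 to 118 reads, was the only one above 13 reads in any library.

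In order to see which histone genes carry the processing signal that replaces the poly(A) tail, the bases behind each stop codon were searched for the stem-loop. The pattern searched was GG, any 2 bases, CTT, any base, T, any base, AG, any 2 bases and CC, on the strand of the gene and within 150 bases of the stop codon. It was present in 60 of 60 replication-dependent genes, starting 22 to 67 bases behind the stop codon, and in 1 of 11 replacement genes. Among the 19874 other protein-coding genes of the annotation, 16 (0.0805%) held it, most of them histone genes by name that the symbol rule did not take in. The stem-loops of the 10 replication-dependent genes with the highest deposited FPKM (a level scaled for transcript length) are shown together with that of H2AFX. Some genes not shown had more reads, such as HIST2H2BF with 362 over the 6 libraries against 99 for HIST1H4E. Capitals mark the 16 bases of the stem-loop, the coordinates are those of the capitals on GRCh38, and lower case marks 5 bases on each side.

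HIST1H2BK, chr6:27146366-27146381, minus strand: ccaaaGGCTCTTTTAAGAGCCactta
HIST1H1C, chr6:26055744-26055759, minus strand: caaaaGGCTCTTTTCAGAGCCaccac
HIST1H2BH, chr6:26252055-26252070, plus strand: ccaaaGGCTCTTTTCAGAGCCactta
HIST1H4J, chr6:27824459-27824474, plus strand: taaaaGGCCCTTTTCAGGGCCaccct
HIST1H4C, chr6:26104317-26104332, plus strand: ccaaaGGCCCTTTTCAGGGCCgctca
HIST1H2BD, chr6:26158587-26158602, plus strand: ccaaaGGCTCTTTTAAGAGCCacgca
HIST2H2AC, chr1:149887391-149887406, plus strand: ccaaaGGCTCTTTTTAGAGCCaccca
HIST1H1E, chr6:26157095-26157110, plus strand: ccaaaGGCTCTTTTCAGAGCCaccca
HIST1H2AC, chr6:26124669-26124684, plus strand: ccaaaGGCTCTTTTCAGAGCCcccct
HIST1H4E, chr6:26205001-26205016, plus strand: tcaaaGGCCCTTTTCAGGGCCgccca
H2AFX, chr11:119094898-119094913, minus strand: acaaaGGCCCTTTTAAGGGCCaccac

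The stem-loops varied little. Over the 61 genes with a match there were 11 forms, and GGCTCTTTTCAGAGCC accounted for 35 genes, with 8 genes each for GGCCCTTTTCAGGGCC and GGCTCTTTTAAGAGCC. H2AFX, which encodes the H2A variant that is phosphorylated at DNA breaks, was the only replacement gene with the pattern, and it also has annotated transcripts that run 1024 bases past it. The stem-loop alone thus divided the classes by sequence except for H2AFX.

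The annotated 3′ ends divided the replication-dependent genes further. For 14 of the 60 genes a transcript is annotated that runs more than 50 bases past the stem-loop, by 430 to 37155 bases, and 10 of these (71.4%) have the poly(A) signal AATAAA within the last 50 bases of such a transcript. In the other 46 genes no annotated transcript ends more than 18 bases past the stem-loop, and 2 of them (4.35%) hold that signal. HIST1H2AC, HIST1H2BD and HIST1H2BJ belong to the first set, and HIST1H2BK, HIST1H1C and HIST1H2BH to the second.

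Despite the poly(A) selection, replication-dependent histone reads were found in every library. They numbered 10222 over the 6 libraries, against 342684 reads of the replacement genes, and made up 2.24% to 3.66% of all histone reads of a library. Of the 60 genes, 35 had reads in all 6 libraries. The libraries labelled control had reads of 39, 47 and 57 of these genes and those labelled knockdown had reads of 58, 52 and 51, so the lowest count was in control replicate 1, the shallowest library. 31 genes did not reach the low-count filter of edgeR, with 1 to 76 reads each over the 6 libraries (median 20). In 3 of these the groups did not overlap, with HIST1H2BI and HIST1H3A higher and HIST1H3D lower in the libraries labelled knockdown (named after their values were seen), against 15.6% of the genes that passed the filter. HIST1H2BI had 0, 1 and 5 reads in control and 12, 7 and 11 reads in knockdown libraries. HIST1H3D shares 96.6% of its exon bases with another gene annotated on the same strand, so its reads may be split or counted with it. When all 60 genes were tested without the filter, 0 passed an adjusted p of 0.05 in edgeR and 1 had an unadjusted p under 0.05, and this was HIST1H1C. For scale, 8.18% of all genes tested had such a p in the fit with the filter. Some other genes did pass the adjusted threshold without the filter, and their number is given at the end.

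Levels were compared between genes by FPKM, which is scaled for transcript length. The replacement genes had a median FPKM of 55.4, taking each gene as its mean over 6 libraries, and the replication-dependent genes one of 0.496, with 44 of 60 under 1. The deposited FPKM rest on transcript lengths of the authors, which are not those of GENCODE release 44 for some genes. HIST1H2AG and HIST1H3G had 72.6 and 75.5 reads per unit of FPKM and HIST1H4I had 40.5, against 12.8 for HIST2H2AC, although their annotated exons span 493, 496 and 397 bases and those of HIST2H2AC 494. Their FPKM are therefore low for their reads, and they are counted among the genes under 1 (these genes were named after their values were seen). H2AFZ led all members at 358, followed by H3F3A at 150 and H3F3B at 106, a pair of genes that encode the same replacement H3 protein. H2AFB3, a histone gene known from testis, was at the other end of its class with 0.085 and 10 reads. It was not tested, and no 100-base stretch of its exons occurs only once in the genome.

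**Figure D1:**
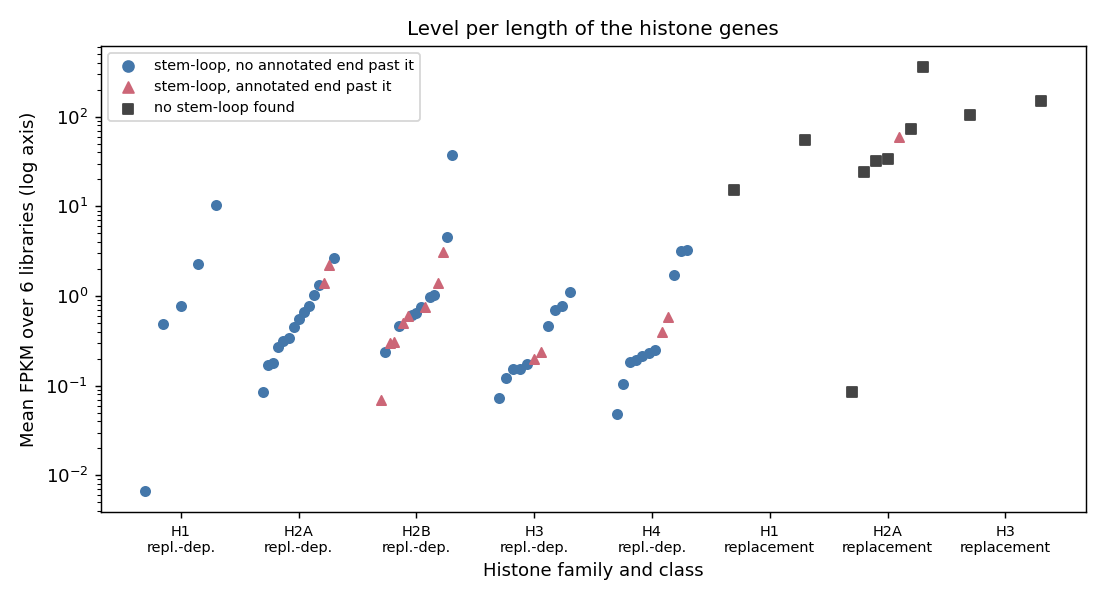
Mean FPKM over the 6 libraries for each of the 71 histone genes, on a log axis, with genes set side by side by family and class. Circles mark genes with a stem-loop and no annotated end more than 50 bases past it, triangles genes with such an end and squares genes without a stem-loop. Replacement genes other than H2AFB3 lie above 15, whereas HIST1H2BK at 37.3 and HIST1H1C at 10.5 are the only replication-dependent genes above 5.

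Among the replication-dependent genes the reads were concentrated in a few. The H2B family held 52.4% of the reads of the class in 17 genes, the H2A family 17.6% in 15 genes, the linker histone H1 family 17.2% in 5, the H4 family 8.52% in 12 and the H3 family 4.29% in 11. HIST1H2BK alone had 2774 of the 10222 reads. The HIST1 cluster held 87.7% of the reads of the class.

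Genes with an annotated end past the stem-loop had more reads than the others, with a median of 174 reads per gene over the 6 libraries against 53.5. Their annotated exons are longer, with a median of 2020.5 against 488 bases. By deposited FPKM the medians were 0.541 for genes with such an end and 0.4775 for the others. The lengths behind the deposited FPKM do not follow these exons, so a comparison per length is uncertain. The 46 genes without an annotated end past the stem-loop still held 70.7% of the reads of the class, and both leading genes, HIST1H2BK and HIST1H1C, were among them. A read count cannot tell which 3′ end a molecule had, so transcripts with a tail and transcripts that passed the selection without one cannot be told apart here.

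Near-identical copies limit some of these values. In 53 of the 71 genes every 100-base stretch of exon occurs once in the genome, and in 12 genes under 90% of such stretches do. HIST1H2BK stood at 77.5%, HIST1H4J at 9.31%, H3F3A at 82.1% and HIST2H2AC at 87.3%, whereas HIST2H4B and HIST2H2AA4 stood at 0%. No source used here states how reads with several matches were counted, so the split of reads between such copies is uncertain. H2BFS, a near copy of HIST1H2BK on chromosome 21 that was chosen after its values were seen, had 163 to 330 reads per library against 389 to 622 for HIST1H2BK.

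The promoters of these genes were then compared, as the 250 bases before the start of the gene in RefSeq on GRCh38.p14. An entry was found for 65 of the 71 genes. The octamer ATTTGCAT, the binding motif of OCT1 known from H2B promoters, was found on either strand in 13 of 17 H2B genes (76.5%) and 10 of 14 H2A genes (71.4%), but in 0 of 5 H1, 1 of 9 H3 and 0 of 10 H4 genes, against 1.66% of all 27305 promoters. CCAAT was found on either strand in 48 of 55 replication-dependent promoters (87.3%), with 3 of 10 H4 genes, against 33% of all promoters. TATAAA was found in 34 of 55 (61.8%) against 11.1%. Of 10 replacement promoters, 7 (70%) held CCAAT, 4 (40%) TATAAA and 1 (10%) the octamer. CCAAT and TATAAA were thus above the share of all promoters in both classes. Some H2A and H2B genes lie head to head, so the same motif can fall in the windows of both. HIST1H2BJ and HIST1H2AG start at 27132795 and 27133043 on opposite strands of chromosome 6, and HIST1H2BC and HIST1H2AC at 26123926 and 26124145. The counts of the H2A and H2B families are therefore not independent. The promoters of the members with the highest FPKM of each class are shown with these motifs of either strand in capitals, and adjoining or overlapping motifs run together.

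HIST1H2BK, chr6:27146859-27147108, minus strand: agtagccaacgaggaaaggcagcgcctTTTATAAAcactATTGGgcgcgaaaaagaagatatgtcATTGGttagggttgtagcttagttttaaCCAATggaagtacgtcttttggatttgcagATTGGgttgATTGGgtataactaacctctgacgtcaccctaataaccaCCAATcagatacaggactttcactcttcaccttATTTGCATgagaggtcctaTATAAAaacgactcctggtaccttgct
H2AFZ, chr4:99950276-99950525, minus strand: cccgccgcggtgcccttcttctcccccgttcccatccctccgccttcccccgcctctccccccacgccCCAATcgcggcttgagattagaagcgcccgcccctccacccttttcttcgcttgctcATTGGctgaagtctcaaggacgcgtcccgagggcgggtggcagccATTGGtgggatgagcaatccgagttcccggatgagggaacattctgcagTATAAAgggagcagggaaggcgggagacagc

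HIST1H2BK holds the CCAAT motif 6 times and the octamer once, close to its start, whereas H2AFZ holds the CCAAT motif 3 times and no octamer. These matches are a description of the letters in the window, and binding was not measured.

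To determine whether histone transcripts differed between the labels, all genes were tested with edgeR. Of 15299 genes tested, 0 (0%) passed an adjusted p of 0.05, 1251 (8.18%) had an unadjusted p under 0.05 (3.86% of the tested genes with a higher and 4.32% with a lower value in the libraries labelled knockdown), and 2392 (15.6%) had groups that did not overlap. The filter was passed by 29 of the 60 replication-dependent genes and 10 of the 11 replacement genes. Of the 29, 0 passed the adjusted threshold in edgeR, DESeq2 or limma-voom, 0 had an unadjusted p under 0.05 in any of these tools, and in 0 did the groups not overlap. Of the 10, 0 passed the adjusted threshold in any of these tools, 1 had an unadjusted p under 0.05 in edgeR (H2AFZ), 1 in DESeq2 and 2 in limma-voom, and in 2 the groups did not overlap (H2AFJ, higher in the libraries labelled knockdown, and H2AFX, lower). A difference in either class was therefore not shown. The share of all genes with an unadjusted p under 0.05 is given above for edgeR only.

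The classes differed in where their estimates lay and in how wide they were. Among the replication-dependent genes the estimate lay above 0 in 20 of 29 (69%) and below 0 in 9, against 49% above 0 over all genes tested, and the median log2 fold change was 0.33 against -0.006 for all genes. Without knockdown replicate 3 that median was -0.033, and without control replicate 3 it was 0.085, so its direction depended on knockdown replicate 3. Without the filter 43 of 60 genes (71.7%) lay above 0, against 49.6% of all genes. The SE of the log2 fold change ranged from 0.167 to 1.19 with a median of 0.582, compared with 0.181 over all genes tested. The 10 replacement genes lay between -0.27 and 0.28 with a median of -0.03 and SEs of 0.093 to 0.187, so a change of a given size would have been resolved far better in them.

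**Figure D2:**
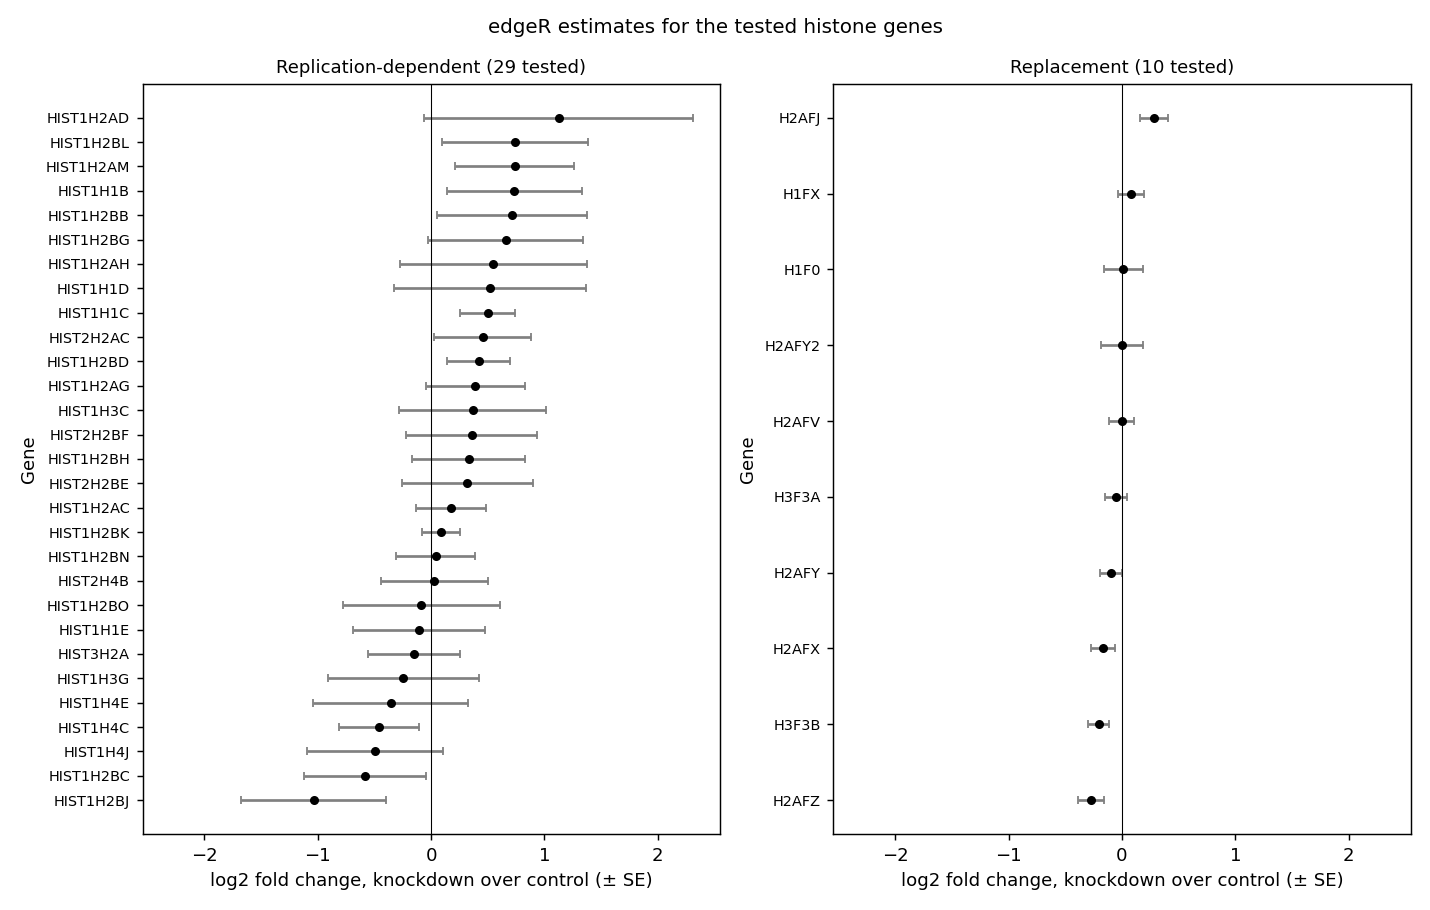
The edgeR log2 fold changes of libraries labelled knockdown over control (points) with their SE (bars), for the 29 replication-dependent and the 10 replacement genes tested, sorted by estimate. The replication-dependent estimates spread from -1.04 to 1.13 with wide bars, and the replacement estimates from -0.27 to 0.28 with narrow ones.

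Summed over its 60 genes, the replication-dependent class stood at 65.3, 44.4 and 47.5 CPM in control replicates 1 to 3 and at 66.0, 45.6 and 67.2 CPM in knockdown replicates 1 to 3. The sums fell into a high set around 66 and a low set around 45, and each set held libraries of both labels. Counting error was small beside this gap, with 95% Poisson intervals of 62.1 to 68.5 CPM for control replicate 1 and 42.2 to 46.8 CPM for control replicate 2, and these cover counting error only. The means were 52.4 ± 11.3 CPM in control and 59.6 ± 12.1 CPM in knockdown libraries (SD, n = 3), a ratio of 1.14 within the spread between libraries. In bulk RNA, a different share of cells in S phase and a different amount of histone mRNA per cell cannot be told apart.

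The same libraries were the highest of their group in RNAs that are made without a poly(A) tail. A list of 32 such RNAs (RNase MRP and P RNAs, 7SK, 7SL, Y, vault, spliceosomal and small nucleolar RNAs) was examined, of which 21 were in the table. They summed to 35.7, 15.8 and 19.5 CPM in control replicates 1 to 3 and to 85.7, 20.6 and 68.0 CPM in knockdown replicates 1 to 3. Control replicate 1 and knockdown replicates 1 and 3 were thus the highest of their group in both sums. Between 14 and 19 of the 22 entries of these RNAs had reads in a library, with RNU12 entered under separate gene identifiers. Of the 8 that could be tested, 0 passed the adjusted threshold, and 4 had an unadjusted p under 0.05, all with higher values in the libraries labelled knockdown, as had 3.86% of all genes tested (RN7SK, RMRP, RN7SL1 and RPPH1, chosen after their values were seen). The part of these RNAs in the histone sums was not tested.

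**Figure D3:**
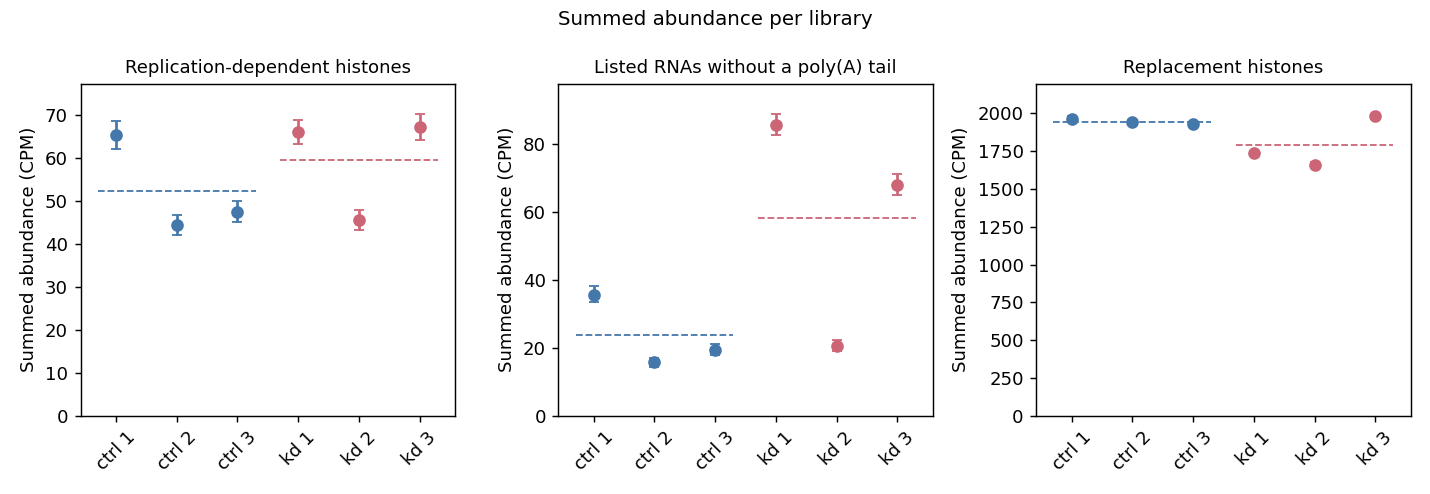
Summed CPM per library for the replication-dependent histones, the listed RNAs without a poly(A) tail and the replacement histones, with points for libraries (ctrl, control; kd, knockdown), bars for the 95% Poisson interval and dashed lines for the group means. Control replicate 1 and knockdown replicates 1 and 3 are highest of their group in the first 2 panels, and knockdown replicates 1 and 2 are lowest in the third.

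The replication-dependent genes were then examined by family, beginning with the linker histones. The H1 family summed to 11.8, 5.90 and 7.26 CPM in the libraries labelled control and to 12.1, 7.72 and 13.2 CPM in those labelled knockdown, with the high and low libraries of the whole class. HIST1H1C, a main H1 subtype of somatic cells, stood at 7.62, 4.34 and 5.81 CPM in control and at 9.11, 6.66 and 9.28 CPM in knockdown libraries. Its groups overlapped only through control replicate 1, which exceeded knockdown replicate 2. The edgeR estimate was 0.50 with an SE of 0.243 and an adjusted p of 0.615, and its unadjusted edgeR p of 0.0696 was the lowest of the class. HIST1H1E, another somatic H1 gene, stood at 3.07, 1.01 and 0.963 CPM in control and 1.99, 0.636 and 2.01 CPM in knockdown libraries, with an edgeR estimate of -0.11 (SE 0.582, adjusted p 0.968) that turned to 0.65 without control replicate 1.

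In the H2A family 7 of 15 genes were tested, of which 6 had estimates above 0. HIST2H2AC had the highest deposited FPKM of the family at 2.68. HIST1H2AG, with 199 reads over 493 annotated exon bases against 205 reads over 494 for HIST2H2AC, was listed at 0.457. HIST2H2AC stood at 0.861, 1.19 and 0.738 CPM in control and 1.47, 0.818 and 1.56 CPM in knockdown libraries. Its edgeR estimate was 0.45 (SE 0.428, adjusted p 0.769), and knockdown replicate 2 lay among the controls. HIST1H2AC, which has an annotated polyadenylated transcript ending 14432 bases past the stem-loop, stood at 5.12, 2.66 and 3.15 CPM in control and 3.84, 3.24 and 5.23 CPM in knockdown libraries (edgeR estimate 0.18, SE 0.309, adjusted p 0.883). The ranges of both groups were nearly the same.

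The largest positive estimates of the class belonged to HIST1H2AD, HIST1H2BL and HIST1H2AM, all of them low in abundance. HIST1H2AD had no reads in control replicates 1 and 2 but 0.417 CPM in control replicate 3, against 0.322, 0.121 and 0.52 CPM in the knockdown libraries, which gave an edgeR estimate of 1.13 with an SE of 1.19 (adjusted p 0.798). HIST1H2AM stood at 0.287, 0.367 and 0.578 CPM in control and 0.938, 0.545 and 0.589 CPM in knockdown libraries (edgeR estimate 0.74, SE 0.524, adjusted p 0.704). HIST1H2BL stood at 0.123, 0.428 and 0.193 CPM in control and 0.557, 0.303 and 0.416 CPM in knockdown libraries (edgeR estimate 0.74, SE 0.643, adjusted p 0.748). All 3 had overlapping groups. HIST1H2AD and HIST1H2AM share 85.3% and 71% of their exon bases with another gene annotated on the same strand, so their reads may be split or counted with it.

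The H2B family, which led the class, summed to 33.0, 25.4 and 24.7 CPM in control and 34.6, 25.0 and 32.8 CPM in knockdown libraries. HIST1H2BK, the gene with the promoter printed above, stood at 16.0, 15.3 and 12.5 CPM in control and 18.2, 13.6 and 14.6 CPM in knockdown libraries. Its edgeR estimate was 0.09 with the smallest SE of the class, 0.167, and an adjusted p of 0.896. It turned to -0.046 without knockdown replicate 1 and to -0.013 without control replicate 3. The groups of HIST1H2BK overlapped, with knockdown replicate 1 above all controls and the other two knockdown libraries among them.

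HIST1H2BD, an H2B gene with an annotated transcript ending 12747 bases past its stem-loop and holding a poly(A) signal, stood at 2.05, 2.75 and 2.60 CPM in control and 2.55, 3.24 and 4.16 CPM in knockdown libraries (edgeR estimate 0.42, SE 0.28, adjusted p 0.688). Unlike the class sum, it was lowest in control replicate 1. HIST1H2BH stood at 2.95, 0.642 and 1.32 CPM in control and 1.90, 1.82 and 2.39 CPM in knockdown libraries (edgeR estimate 0.33, SE 0.5, adjusted p 0.862), so that the controls spanned a wider range than the knockdown libraries. Without control replicate 2 its estimate was -0.06.

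The lowest estimates also came from the H2B family. HIST1H2BJ stood at 1.43, 0.428 and 0.578 CPM in control and 0.615, 0.303 and 0.242 CPM in knockdown libraries, an edgeR estimate of -1.04 with an SE of 0.639 and an adjusted p of 0.667. HIST1H2BC stood at 2.54, 0.795 and 1.19 CPM in control and 1.55, 0.636 and 0.797 CPM in knockdown libraries (edgeR estimate -0.58, SE 0.541, adjusted p 0.765). In both genes control replicate 1 was the highest library, and without it the estimates were -0.36 and 0.01.

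The H3 and H4 genes, which encode the core of the nucleosome, gave few reads. Only 2 of the 11 H3 genes were tested, with 1 estimate on each side of 0, and the family summed to 2.38, 2.23 and 2.28 CPM in control and 2.73, 1.70 and 3.05 CPM in knockdown libraries. The H4 family summed to 7.05, 3.79 and 4.85 CPM in control and 5.66, 3.76 and 3.71 CPM in knockdown libraries. Of its 4 tested genes 3 had estimates below 0. The H4 sum, unlike that of the other families, was not high in knockdown replicate 3.

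HIST1H4C, whose exons are unique in the genome, stood at 1.52, 1.71 and 1.86 CPM in control and 1.61, 0.939 and 1.14 CPM in knockdown libraries (edgeR estimate -0.46, SE 0.352, adjusted p 0.719). Knockdown replicate 1 lay within the controls and the other two knockdown libraries below them. HIST1H4J stood at 2.75, 0.459 and 1.32 CPM in control and 1.44, 0.999 and 0.727 CPM in knockdown libraries (edgeR estimate -0.49, SE 0.602, adjusted p 0.827), and without control replicate 1 the estimate was 0.26. HIST1H4E stood at 1.02, 0.52 and 0.353 CPM in control and 0.557, 0.151 and 0.762 CPM in knockdown libraries (edgeR estimate -0.36, SE 0.68, adjusted p 0.894), and without control replicate 1 the estimate was 0.16. The controls enclosed both genes' knockdown values but for the lowest value of HIST1H4E.

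**Figure D4:**
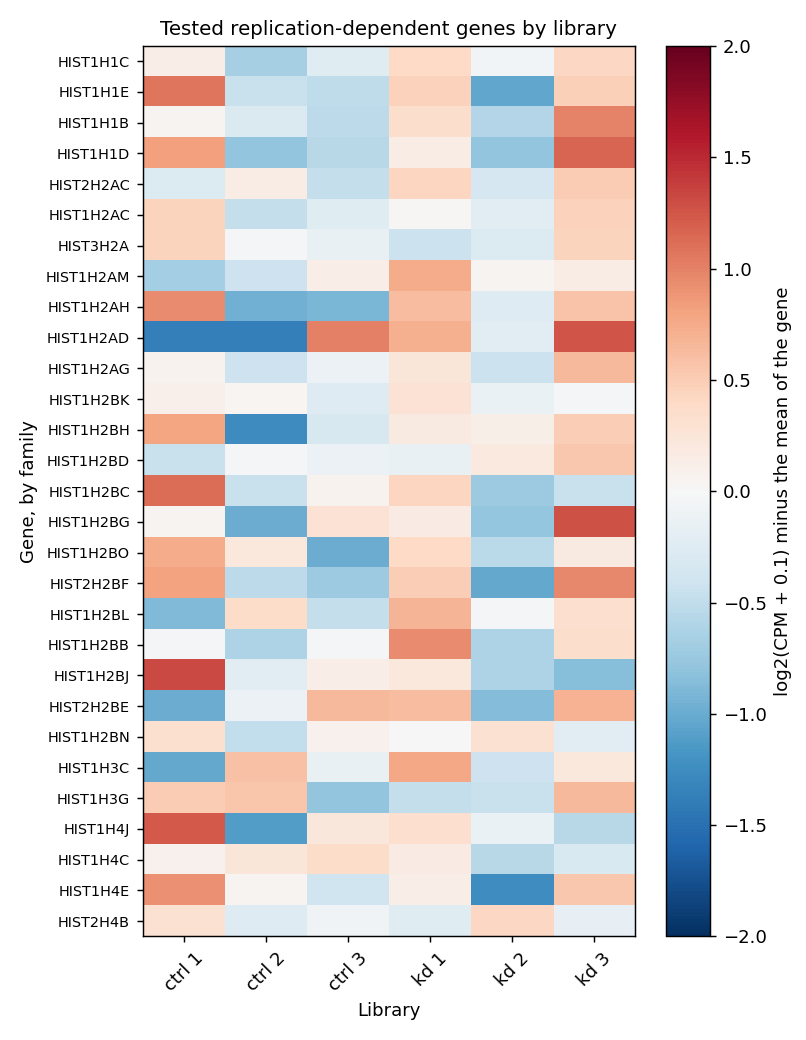
Level of each of the 29 tested replication-dependent genes (rows, by family) in each library (columns; ctrl, control; kd, knockdown), as log2(CPM + 0.1) minus the mean of that gene over the 6 libraries. Control replicate 1 and knockdown replicates 1 and 3 are red in most rows, and no gene separates the labels.

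The replacement genes were measured with far more reads. Their sum was 1962, 1942 and 1929 CPM in control replicates 1 to 3 and 1736, 1661 and 1981 CPM in knockdown replicates 1 to 3. Knockdown replicates 1 and 2 thus lay below the 3 controls, and knockdown replicate 3 above them. The means were 1792 ± 167 CPM and 1944 ± 16.8 CPM (SD, n = 3), a ratio of 0.922 within the spread of the knockdown libraries.

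H2AFZ encodes H2A.Z, the variant placed in nucleosomes at promoters. It stood at 393, 444 and 378 CPM in control and 318, 302 and 386 CPM in knockdown libraries. The groups overlapped because knockdown replicate 3 exceeded control replicate 3. The edgeR estimate was -0.27 with an SE of 0.113, an unadjusted p of 0.0389 and an adjusted p of 0.605, so it did not pass the test. H2AFV, which encodes a close relative of H2A.Z, stood at 108, 127 and 128 CPM in control and 117, 130 and 114 CPM in knockdown libraries, with an edgeR estimate of -0.004 (SE 0.107, adjusted p 0.993).

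The groups did not overlap in H2AFJ and H2AFX. H2AFJ, an H2A variant gene known to accumulate in senescent cells, stood at 20.9, 19.2 and 22.9 CPM in control and 27.4, 25.8 and 23.5 CPM in knockdown libraries (edgeR estimate 0.28, SE 0.126, adjusted p 0.608). H2AFX stood at 104.6, 104.6 and 110.6 CPM in control and 95.8, 84.7 and 104.5 CPM in knockdown libraries (edgeR estimate -0.17, SE 0.104, adjusted p 0.674). The exact two-sided permutation p was 0.1 for each, the lowest value that 3 against 3 can give. The nearest values of H2AFX in the groups were almost equal, and groups apart upward or downward were found in 7.94% and 7.7% of all genes tested.

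The genes of the replacement H3 protein were among the most abundant. H3F3B stood at 369, 335 and 348 CPM in control and 289, 289 and 335 CPM in knockdown libraries (edgeR estimate -0.20, SE 0.0929, adjusted p 0.61), so that knockdown replicate 3 reached the lowest control. H3F3A stood at 504, 490.0 and 535 CPM in control and 477, 446 and 551 CPM in knockdown libraries (edgeR estimate -0.05, SE 0.0968, adjusted p 0.886). Its knockdown libraries lay on both sides of the controls.

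H2AFY and H2AFY2 encode the macroH2A variants, which carry a large non-histone domain and are enriched on the inactive X chromosome. H2AFY stood at 240.5, 245 and 234 CPM in control and 215, 206 and 252 CPM in knockdown libraries (edgeR estimate -0.09, SE 0.0989, adjusted p 0.796). H2AFY2 stood at 88.0, 49.1 and 62.4 CPM in control and 62.6, 66.1 and 71.1 CPM in knockdown libraries, an edgeR estimate of 0.002 with the widest SE of its class, 0.187 (adjusted p 0.998). The wide spread of H2AFY2 lay among the controls. Genes on the opposite strand overlap 28.6% of the annotated exon bases of H2AFY.

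The replacement linker histones H1F0, known from differentiated and resting cells, and H1FX gave estimates near 0. H1F0 stood at 45.2, 38.6 and 29.0 CPM in control and 37.9, 32.6 and 43.3 CPM in knockdown libraries (edgeR estimate 0.01, SE 0.174, adjusted p 0.987). H1FX stood at 88.5, 89.7 and 79.9 CPM in control and 95.1, 78.5 and 99.1 CPM in knockdown libraries (edgeR estimate 0.08, SE 0.114, adjusted p 0.855). An antisense gene overlaps 22.8% of the exon bases of H1FX. In both genes, as in HIST1H1C, knockdown replicate 2 was the lowest of the knockdown libraries.

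Finally, the genes that serve histone mRNAs and proteins were examined. Of 24 factors that switch on replication-dependent histone genes, form their 3′ ends or degrade their mRNA, 24 were tested, 0 passed the adjusted threshold of edgeR and 0 had an unadjusted p under 0.05, with 8 estimates above 0, 16 below and a median of -0.12. SLBP, the stem-loop binding protein, stood at 156 ± 8.74 CPM in knockdown and 156 ± 4.69 CPM in control libraries (SD, n = 3). The smallest p-values belonged to CDK2, the kinase partner of cyclin E (edgeR estimate -0.20, SE 0.0914, adjusted p 0.61), and ZCCHC6, a terminal uridylyl transferase that marks histone mRNA for decay (edgeR estimate -0.31, SE 0.175, adjusted p 0.642). The groups did not overlap in 3 of the 24 factors (CDK2, ZCCHC6 and SNRPB, the last named after its values were seen), all lower in the libraries labelled knockdown, as in 7.7% of all genes tested.

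Of 24 histone chaperones and carriers, all tested, 0 passed the adjusted threshold of edgeR, and the median was -0.12. An unadjusted edgeR p under 0.05 was found in 1 with a higher and 2 with a lower value in the libraries labelled knockdown. Over all genes tested these shares were 3.86% and 4.32%. The groups did not overlap in 2 chaperones with higher and 5 with lower values, against 7.94% and 7.7% of all genes tested. HAT1, which acetylates newly made H4, had an edgeR estimate of -0.32 (SE 0.121, adjusted p 0.605), and NAP1L1, a carrier of H2A and H2B, one of -0.24 (SE 0.0936, adjusted p 0.605). The member with an unadjusted edgeR p under 0.05 on the upper side was MCM2 (edgeR estimate 0.20, SE 0.0821). It is both an H3 and H4 carrier and a helicase subunit and was counted in both lists.

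Of 40 DNA replication genes, most of which peak around S phase, 40 were tested and 0 passed the adjusted threshold of edgeR. MCM2 was the 1 gene with an unadjusted edgeR p under 0.05 above 0, and 5 genes had one below 0. Over all genes tested these shares were 3.86% and 4.32%. There were 9 estimates above 0, 31 below and a median of -0.08 (49% of all genes tested lay above 0). The groups did not overlap in 2 genes with higher and 7 with lower values in the libraries labelled knockdown. Over all genes tested this held for 7.94% and 7.7%. RRM2, the regulated subunit of ribonucleotide reductase, had an edgeR estimate of -0.35 (SE 0.118, adjusted p 0.599), and PRIM2, a primase subunit, one of -0.30 (SE 0.106, adjusted p 0.599).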

How the data were processed

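Raw read counts per gene and FPKM values of the same 6 libraries were deposited by the authors. Per the labels, RNA was selected with oligo(dT) beads, fragmented, and made into directional libraries. The submitters' processing notes name bcl2fastq, TopHat2, edgeR and GRCh38. No source used here gives the counter, the annotation release or the handling of strand and of multiply mapped reads. The members and gene lists were chosen with earlier results of these data known.

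Counts were tested in R 4.3.3 with edgeR 4.0.16 (quasi-likelihood, two-sided), with TMM and the default low-count filter (a minimum count of 10 and a total of 15), and adjusted by Benjamini-Hochberg over all 15299 genes tested. The threshold was 0.05. Fold changes are log2, knockdown over control. The edgeR test reports no SE, so each SE was derived as the absolute estimate divided by the square root of the F statistic. It is therefore approximate, above all for genes with few reads. DESeq2 1.42.0, limma 3.58.1, other scalings and filters, a replicate block and the omission of each library were alternatives. Class sums and list counts are descriptions without a test. Single values were also compared by an exact permutation test.

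Named were ANXA2, tested replacement genes, the 10 replication-dependent genes highest in FPKM, the 3 highest and 3 lowest estimates, members with an unadjusted p under 0.05 and the 2 smallest p-values of each gene list for histone mRNA, chaperones and replication. SLBP and MCM2 were named after their values were seen. Pairs of replicates differed by far more than sampling noise (chi-square per degree of freedom of at least 9.64).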

Additional observations from a re-analysis of the deposited data

How the results depend on the processing

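The counts of 0 histone genes past the adjusted threshold held in both classes under every alternative run. Over all genes, the count of calls was 0 in the edgeR fit, 165 without the low-count filter, 32 with DESeq2 and 0 to 4 when single libraries were left out. Leaving out single libraries moved the median log2 fold change of the replication-dependent genes between -0.033 and 0.44 (0.085 without control replicate 3), that of the replacement genes between -0.12 and -0.0080, and the log2 ratio of the replacement sums between -0.20 and -0.065. The lowest value came without knockdown replicate 3 each time. The cause was not tested.

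The sign of some single estimates changed. With library size only, H1F0 was -0.011 and H2AFY2 -0.019, and with the upper quartile H2AFV was 0.013. Leaving out single libraries gave ranges across 0 for H1F0 (-0.14 to 0.17), H2AFV (-0.079 to 0.041), H2AFY2 (-0.17 to 0.26), H3F3A (-0.14 to 0.015), HIST1H1E (-0.39 to 0.65), HIST1H2AC (-0.033 to 0.50), HIST1H2BC (-1.06 to 0.014), HIST1H2BH (-0.056 to 1.06), HIST1H2BK (-0.046 to 0.17), HIST1H4E (-0.81 to 0.16) and HIST1H4J (-0.93 to 0.26). Counts at an unadjusted p under 0.05 ranged from 0 to 3 in each class over the fits. In the main edgeR fit 8.18% of all genes tested had such a p. The shares in the other fits are not given here, so these counts are not read as a result about either class.

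Same-numbered libraries did not deviate together (correlations -0.06, 0.12 and -0.20), and the labels give no pairing. With a replicate block, 0 genes were called, 1076 had an unadjusted p under 0.05 against 1251 without it, and the medians were 0.30 and -0.03 for the replication-dependent and replacement genes. Not every library correlated best with its own number. Low read counts limit the replication-dependent genes, of which 31 of 60 did not pass the filter. The cause of the low counts was not tested.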
